A study of Homo sapiens with 6 samples.

Results

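The YAP/TAZ-TEAD genes described here are 10 of the 28008 genes in the count table: the coactivator genes YAP1 and WWTR1 (WWTR1 encodes TAZ), the DNA-binding partner genes TEAD1 and TEAD4, the target genes CYR61, CTGF, ANKRD1, AMOTL2 and AXL, and the kinase gene LATS2, which is both a regulator and a target. They were chosen by name, as textbook components and targets of one pathway, but with earlier results of these data known. All 10 had a row in the table and passed the filter on low counts. CYR61 and CTGF are older symbols of CCN1 and CCN2. Gene positions given beside the values are those of RefSeq on GRCh38.p14.

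Transcripts were measured by RNA-Seq in DU-145-DR cells, which were derived from the human prostate cancer line DU-145, resist docetaxel (DTX), and carry a tet-inducible short hairpin RNA against MUC1 (tet-MUC1shRNA). The DOX-negative group was 3 cultures given 0.1% DMSO as vehicle, and the DOX-positive group was 3 cultures given 500 ng/ml doxycycline (DOX), the drug that switches the hairpin on, for 7 days. Both groups share the DTX-resistant background, and the model rests on 1 resistant derivative and 1 hairpin. The treatment label gives DTX resistance for the vehicle cultures, with the hairpin named for the DOX cultures alone, and no library of DOX-treated cells with a control hairpin was analysed here, so MUC1 silencing and exposure to DOX cannot be told apart. Whether the cultures were independent is stated only as triplicates, so p-values measure the spread between these libraries.

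YAP and TAZ do not bind DNA themselves and act on genes through TEAD proteins. The Hippo kinases MST1 and MST2 (genes STK4 and STK3), with the scaffold SAV1, activate LATS1 and LATS2, which phosphorylate YAP and TAZ and keep them out of the nucleus. Several targets, among them AMOTL2 and LATS2, feed back on the pathway. RNA-Seq measures the transcripts of these genes and neither the phosphorylation nor the location of the proteins.

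The TEAD proteins recognise a core hexamer, GGAATG, which was searched on both strands (CATTCC on the other) in RefSeq promoter windows of GRCh38.p14. Each window runs from 250 bases before to 50 bases after an annotated start, and not every start had a window. The windows matched 7 of the 10 genes, and TEAD1, TEAD4 and CYR61 are the others. The hexamer was in 6 of the 10 windows of these 7 genes, against 14.0% of all 35116 windows, and in 6 of the 7 genes, against 16.7% of all 27305 genes with a window. The genes were chosen as textbook members of the pathway, and this difference was not tested. Of the other YAP/TAZ targets counted below, those with a window and the hexamer were PTPN14, FOXF2 and TGFB2 (1 copy each) and NUAK2 (2 copies). Those with a window that held 0 were MYOF, NT5E, FJX1, F3, IGFBP3, CCDC80 and RBMS3. CTGF, which encodes a secreted matricellular protein and is the textbook reporter of YAP/TAZ activity, had 3 copies, a number that 0.128% of all windows reached. ANKRD1 had 2 copies, a number that 1.37% of all windows reached. YAP1 and LATS2 had 1 copy each, and AMOTL2 and AXL had 1 copy in the second of their 2 windows and 0 in the first. Both WWTR1 windows held 0, but they lie downstream of the 5′ end of the gene at 149724788, which was not searched. A match describes letters only and is not a measured binding site. The stretches around the hexamers are shown so that the genes with and without a change in expression can be set side by side. Capitals mark the hexamer on either strand, and each sequence runs 5′ to 3′ on the strand of its gene.
CTGF, chr6:131951450-131951553, minus strand: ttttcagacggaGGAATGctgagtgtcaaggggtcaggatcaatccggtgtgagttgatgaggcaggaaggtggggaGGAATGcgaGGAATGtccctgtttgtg
ANKRD1 distal, chr10:90921290-90921319, minus strand: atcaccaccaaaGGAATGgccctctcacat
ANKRD1 proximal, chr10:90921198-90921227, minus strand: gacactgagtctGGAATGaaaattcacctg
YAP1, chr11:102110273-102110302, plus strand: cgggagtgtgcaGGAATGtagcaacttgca
AMOTL2, chr3:134374499-134374528, minus strand: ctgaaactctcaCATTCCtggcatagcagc
AXL, chr19:41226531-41226560, plus strand: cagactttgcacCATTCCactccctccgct
LATS2, chr13:21061560-21061589, minus strand: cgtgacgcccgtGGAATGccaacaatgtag

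**Figure D1:**
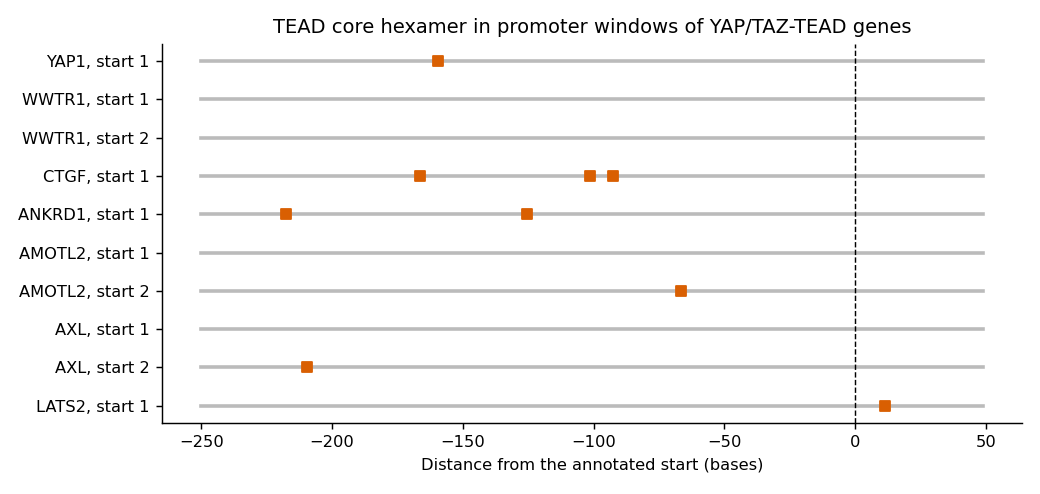
Position of the TEAD core hexamer (squares, either strand) in 10 promoter windows of 7 genes, as distance in bases from the annotated start (dashed line). The 3 copies of CTGF begin 169, 104 and 95 bases before the start, the 2 of ANKRD1 begin 220 and 128 bases before it, and the copy of LATS2 begins 9 bases after it.

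In the deposited counts, library totals ranged from 15092691 to 23243713, and a floor of 3 counts was 0.129 to 0.199 CPM (counts scaled to the library total, here with TMM factors). MUC1, the target of the hairpin, was measured at 21.3, 24.8 and 19.7 CPM in the DOX-negative libraries and at 3.27, 3.87 and 4.44 CPM in the DOX-positive libraries, a log2 fold change of -2.52 (SE 0.146, adjusted p = 4.47e-11, edgeR quasi-likelihood test with Benjamini-Hochberg adjustment). Across the 14292 genes tested, 26.7% passed an adjusted p under 0.05, 13.0% higher and 13.7% lower in DOX-positive cells, and the groups did not overlap for 39.8%. Of the calls, 48.8% were higher on counts, and 6.77% on the deposited TPM (transcript counts scaled for length and to a common total). There the median log2 fold change of all genes moved to -0.32. The share of TPM held by 5 short noncoding RNAs was 51.2%, 34.4% and 62.8% in the DOX-negative and 64.4%, 60.7% and 60.5% in the DOX-positive libraries. The prostate line markers KRT8 (log2 fold change 0.84), KRT18 (0.81), KRT19 (1.00), EPCAM (1.43) and CDH1 (0.92) rose with DOX while VIM did not pass the test (0.03, adjusted p = 0.733 by edgeR), and the part of this shift in the values below was not tested. Summed markers of other cell types stayed low, at 4.27 to 6.27 CPM for 6 fibroblast genes, mostly COL1A1, 0.403 to 1.13 CPM for 4 endothelial genes and 0.256 to 0.479 CPM for 4 leukocyte genes, with CD3E at 0.

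Of the 10 YAP/TAZ-TEAD genes, 4 were higher in DOX-positive cells and 0 were lower: CYR61, AMOTL2, LATS2 and YAP1, of which YAP1 and LATS2 had the opposite sign on the deposited TPM. None of the 4 passed the threshold on the deposited TPM with limma. On TPM rescaled without the 5 noncoding RNAs, YAP1 (log2 fold change 0.195, adjusted p = 0.0321 by limma) and LATS2 (0.340, adjusted p = 0.00561 by limma) were higher. The background for these counts is the 13.0% of all tested genes called higher and the 13.7% called lower. The 10 genes and the lists compared below were chosen with earlier results known, so contrasts with all genes were not tested. By level per transcript length, the 10 genes lay above 54.8% (TEAD4) to 98.7% (CYR61) of the genes tested, and the background was not matched for level. The median log2 fold change of the 10 genes was 0.11, against -0.0034 for all genes tested, and the range was -0.13 to 0.70, so none reached a log2 fold change of 1. The groups did not overlap for 5 genes, the 4 called and WWTR1, against 39.8% of all genes tested. The summed level of the 10 genes was 3368 to 3437 CPM in the DOX-negative and 3880 to 3906 CPM in the DOX-positive libraries. Within that sum CYR61 rose the most, from a mean of 391 to 636 CPM, and WWTR1 fell from 694 to 634 CPM. The sum was not tested and does not describe each gene. In bulk RNA, more cells that express a gene and more RNA per cell cannot be told apart.

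**Figure D2:**
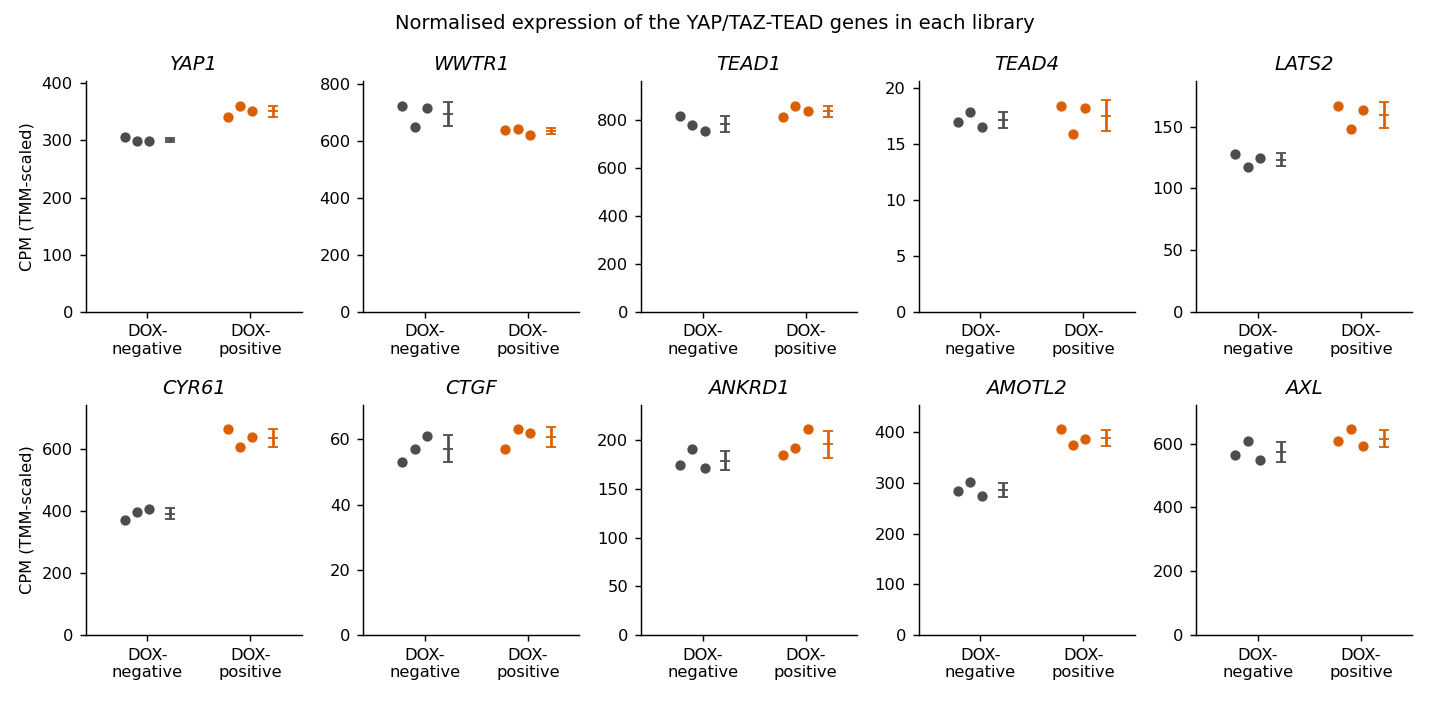
TMM-scaled CPM of the 10 genes in each library (points), with the mean ± SD of 3 libraries beside them, each panel starting at 0. The DOX-positive libraries lie above the DOX-negative ones for CYR61, AMOTL2, LATS2 and YAP1 and below them for WWTR1, and the groups overlap in the other panels; on the deposited TPM, the mean log2 levels of YAP1 and LATS2 were lower in DOX-positive cells.

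YAP1 (chr11:102110447-102233424) was measured at 305, 299 and 299.8 CPM without and at 341, 361 and 352 CPM with DOX. Every DOX-positive library lay above every DOX-negative one, and the DOX-negative libraries were tight (301 ± 3.62 against 351 ± 9.70 CPM, SD, n = 3). YAP1 was 1.17-fold higher, a log2 fold change of 0.22 (SE 0.0588, 95% confidence interval 0.10 to 0.34, adjusted p = 0.00736 by edgeR), a difference that reads as -0.17 on the log2(TPM + 1) scale before, and 0.15 after, subtraction of the shift of all genes. WWTR1 (chr3:149517235-149724788) was measured at 722, 646 and 714 CPM without and at 638, 643 and 620.4 CPM with DOX. The DOX-negative libraries were the higher ones, but replicate 2 lay only just above the DOX-positive libraries, and the log2 fold change of -0.13 (SE 0.0626, 95% confidence interval -0.26 to -0.0014) had an adjusted p of 0.128 by edgeR. Without DOX-negative replicate 2, WWTR1 was called lower at -0.18 (adjusted p = 0.0358), and with total-count scaling at -0.17 (adjusted p = 0.0429).

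The balance of the coactivator transcripts was compared within each library by the ratio of their TPM, which no library scaling can change. WWTR1 transcripts outnumbered YAP1 transcripts 2.36, 2.16 and 2.37 to 1 without and 1.86, 1.78 and 1.76 to 1 with DOX. The groups did not overlap, and the geometric mean ratio fell from 2.29 to 1.80, a log2 difference of -0.35. An exact two-sided permutation test gave p = 0.1, the smallest p that 3 against 3 libraries allow. YAP1 shares exonic bases with the antisense gene AP000942.2 and has the pseudogenes YAP1P1 and YAP1P2, and WWTR1 shares exonic bases with WWTR1-AS1 in GENCODE 29. Whether reads were counted by strand is not given in the sources used here, so such reads could be split or added.

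TEAD1 (chr11:12674421-12944737), the most abundant TEAD transcript here per length, was measured at 817, 781 and 753 CPM without and at 812, 859.9 and 837 CPM with DOX. The groups overlapped, and the log2 fold change was 0.09 (95% confidence interval -0.034 to 0.22, adjusted p = 0.280 by edgeR). TEAD4 (chr12:2959397-3040676) was measured at 17.0, 17.8 and 16.5 CPM without and 18.4, 15.9 and 18.2 CPM with DOX. Its values overlapped throughout, its log2 fold change was 0.03 (95% confidence interval -0.19 to 0.26, adjusted p = 0.858 by edgeR), and its sign turned with total-count scaling (-0.0017) and without DOX-positive replicate 1 (-0.0065). The ratio of TEAD1 to TEAD4 TPM was 9.42 and 9.84 (geometric means, log2 difference 0.06, exact permutation p = 0.6).

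Both other TEAD genes were lower in DOX-positive cells. TEAD2 fell from 23.9 ± 2.05 to 17.7 ± 0.671 CPM (log2 fold change -0.43, adjusted p = 0.00321 by edgeR) and TEAD3 from 17.2 ± 1.57 to 13.0 ± 0.951 CPM (-0.41, adjusted p = 0.0123 by edgeR). The TEAD3 call was lost without DOX-negative replicate 2 (adjusted p = 0.0586) and without DOX-positive replicate 1 (0.0556). As a share of the TPM of all 4 TEAD genes, TEAD1 made up 76.0 ± 0.553% without and 80.1 ± 1.09% with DOX. TEAD2 went from 10.3% to 7.56%, TEAD3 from 5.63% to 4.20% and TEAD4 from 8.06% to 8.16%. The groups did not overlap for the shares of TEAD1, TEAD2 and TEAD3 (exact permutation p = 0.1 for each, the smallest possible) and overlapped for TEAD4 (p = 0.9), and the 4 shares of a library sum to a whole and are not independent. VGLL4, a cofactor that competes with YAP and TAZ for TEAD, rose from 30.3 ± 0.573 to 40.2 ± 2.83 CPM (log2 fold change 0.41, adjusted p = 0.00118 by edgeR), while VGLL1, VGLL2 and VGLL3 had at most 1 count in any library.

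CYR61 (chr1:85580761-85583950), which encodes a secreted matricellular protein that binds integrins, showed the largest change of the 10 genes. It was measured at 372, 396 and 407 CPM without and at 663, 607 and 639 CPM with DOX. The groups were far apart relative to their spread, with means of 391 ± 18.0 and 636 ± 28.4 CPM, a 1.63-fold rise (log2 fold change 0.70, SE 0.0625, 95% confidence interval 0.57 to 0.83, adjusted p = 2.68e-08 by edgeR). Leaving out any 1 library left the log2 fold change between 0.66 and 0.73. On the deposited TPM the difference was 0.31 before (adjusted p = 0.461 by limma) and 0.63 after subtraction of the shift of all genes.

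CTGF (chr6:131948176-131951372), a paralogue of CYR61 from the same CCN family, was measured at 52.9, 57.0 and 61.1 CPM without and at 57.0, 62.9 and 61.9 CPM with DOX. The libraries overlapped, and the log2 fold change was 0.09 (95% confidence interval -0.077 to 0.25, adjusted p = 0.457 by edgeR), an interval that lies wholly under that of CYR61. CTGF is the gene with 3 hexamers in its window, whereas CYR61 had no window, so their hexamers cannot be compared. The ratio of CTGF to CYR61 TPM was 0.139, 0.141 and 0.147 without and 0.0839, 0.101 and 0.0945 with DOX. Its geometric mean went from 0.142 to 0.0929 (log2 difference -0.61), with no overlap between groups and an exact permutation p of 0.1, the smallest possible. CTGF shares exonic bases with the antisense gene AL133346.1.

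**Figure D3:**
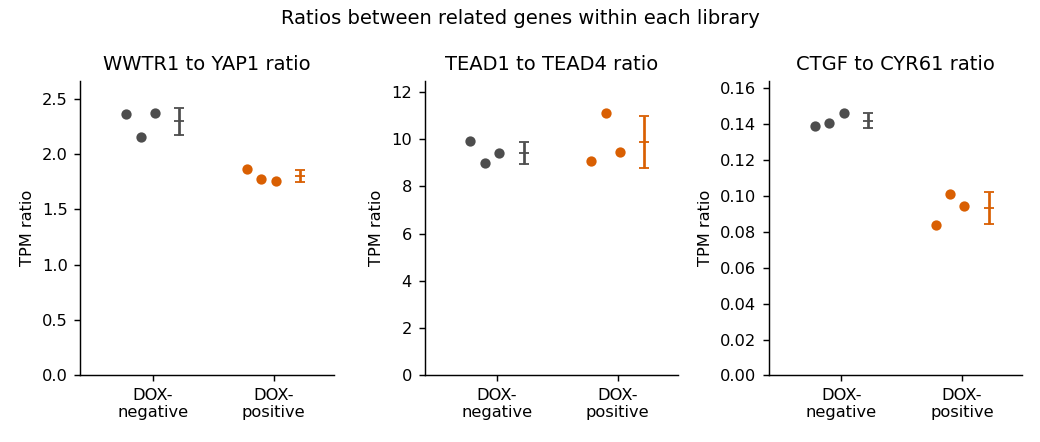
TPM ratios within each library (points) with the arithmetic mean ± SD of 3 libraries beside them, axes from 0. The ratios of WWTR1 to YAP1 and of CTGF to CYR61 were lower in every DOX-positive library than in any DOX-negative library, and the ratios of TEAD1 to TEAD4, between 8.99 and 11.1, overlapped.

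ANKRD1 (chr10:90912096-90921087), an ankyrin-repeat cofactor of muscle and stressed cells, was measured at 175, 190.0 and 171 CPM without and at 184, 192 and 211 CPM with DOX. DOX-negative replicate 2 lay within the DOX-positive range, and the log2 fold change of 0.13 (95% confidence interval -0.012 to 0.27) had an adjusted p of 0.171 by edgeR. AXL (chr19:41219223-41261766), a receptor tyrosine kinase for GAS6, was measured at 565, 608 and 547 CPM without and at 609, 644 and 591 CPM with DOX. The groups overlapped through DOX-negative replicate 2, with a log2 fold change of 0.10 (95% confidence interval -0.030 to 0.23, adjusted p = 0.255 by edgeR). AXL shares exonic bases with the antisense gene AC011510.1.

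AMOTL2 (chr3:134355345-134375417), an angiomotin-family protein that holds YAP at junctions and activates LATS kinases, was measured at 282, 301 and 274 CPM without and at 404, 374 and 385 CPM with DOX. Every DOX-positive library lay above every DOX-negative one, with means of 286 ± 13.7 and 388 ± 15.5 CPM, a 1.36-fold rise (log2 fold change 0.44, SE 0.0620, 95% confidence interval 0.31 to 0.57, adjusted p = 1.49e-05 by edgeR). On the deposited TPM the difference was 0.046 before (adjusted p = 0.911 by limma) and 0.37 after subtraction of the shift of all genes. AMOTL2 shares exonic bases with the pseudogene RPL39P5 on its own strand. LATS2 (chr13:20973036-21061586), the kinase that phosphorylates YAP and TAZ, was measured at 128, 118 and 124 CPM without and at 167, 148 and 164 CPM with DOX. The groups did not overlap, although DOX-positive replicate 2 was the closest to the DOX-negative libraries. LATS2 was 1.29-fold higher (log2 fold change 0.37, SE 0.0678, 95% confidence interval 0.23 to 0.51, adjusted p = 0.000297 by edgeR), and on the deposited TPM it read as -0.025 before and 0.30 after subtraction of the shift of all genes.

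Among the paralogues of the feedback genes, LATS1 and AMOT fell. LATS1 was measured at 90.1, 88.5 and 94.4 CPM without and at 70.3, 68.0 and 76.9 CPM with DOX, a log2 fold change of -0.34 (SE 0.0723, adjusted p = 0.00111 by edgeR) with no overlap. AMOT fell from 8.24 ± 0.340 to 5.48 ± 0.845 CPM (log2 fold change -0.60, adjusted p = 0.00730 by edgeR), and AMOTL1 had a log2 fold change of -0.12 (adjusted p = 0.272 by edgeR). The differences between paralogues were not themselves tested.

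Upstream of YAP and TAZ, 22 further kinases, scaffolds and binding proteins were listed and 21 were tested, of which 6 were higher and 4 lower (47.6%, against 26.7% of all genes tested), with a median log2 fold change of -0.018. Among 16 tested kinases and scaffolds, 6 rose: the protocadherin FAT4 (0.97), the MST partner SAV1 (0.71), the FERM protein FRMD6 (0.68), the LATS activator WWC1 (0.51), and the kinases MAP4K4 (0.38) and TAOK3 (0.26), where values in parentheses are log2 fold changes on counts and MAP4K4 and TAOK3 turned to -0.014 and -0.12 on log2(TPM + 1). SAV1 went from 276 ± 19.3 to 450 ± 7.26 CPM (adjusted p = 3.01e-08 by edgeR). Those that fell were WWC3 (-0.83), LATS1 and the kinase gene STK4 (-0.19, adjusted p = 0.0326 by edgeR), the last a call that was lost when DOX-negative replicate 1 or 3 or DOX-positive replicate 1 or 3 was left out (adjusted p = 0.0765 to 0.105). DCHS1 had 1 to 8 counts and was not tested. Among 5 YAP/TAZ and LATS binding proteins, AMOT fell and 4 did not pass the test.

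Of 16 other YAP/TAZ targets, 15 were tested and 3 were higher and 3 lower (40%, against 26.7% of all genes tested), with a median log2 fold change of 0.08. The growth-arrest gene GADD45A (1.13, adjusted p = 1.28e-08), the ectonucleotidase gene NT5E (0.51, adjusted p = 9.22e-06) and the ferlin gene MYOF (0.41, adjusted p = 4.91e-05, all by edgeR) rose. The secreted-protein gene FJX1 (-0.86, adjusted p = 4.83e-07), the phosphatase gene PTPN14 (-0.33, adjusted p = 0.000594), whose protein binds YAP, and the ARF regulator ASAP1 (-0.24, adjusted p = 0.00586, all by edgeR) fell, and the ASAP1 call was lost without DOX-negative replicate 1 (adjusted p = 0.0597). FOXF2 had 0 counts.

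**Figure D4:**
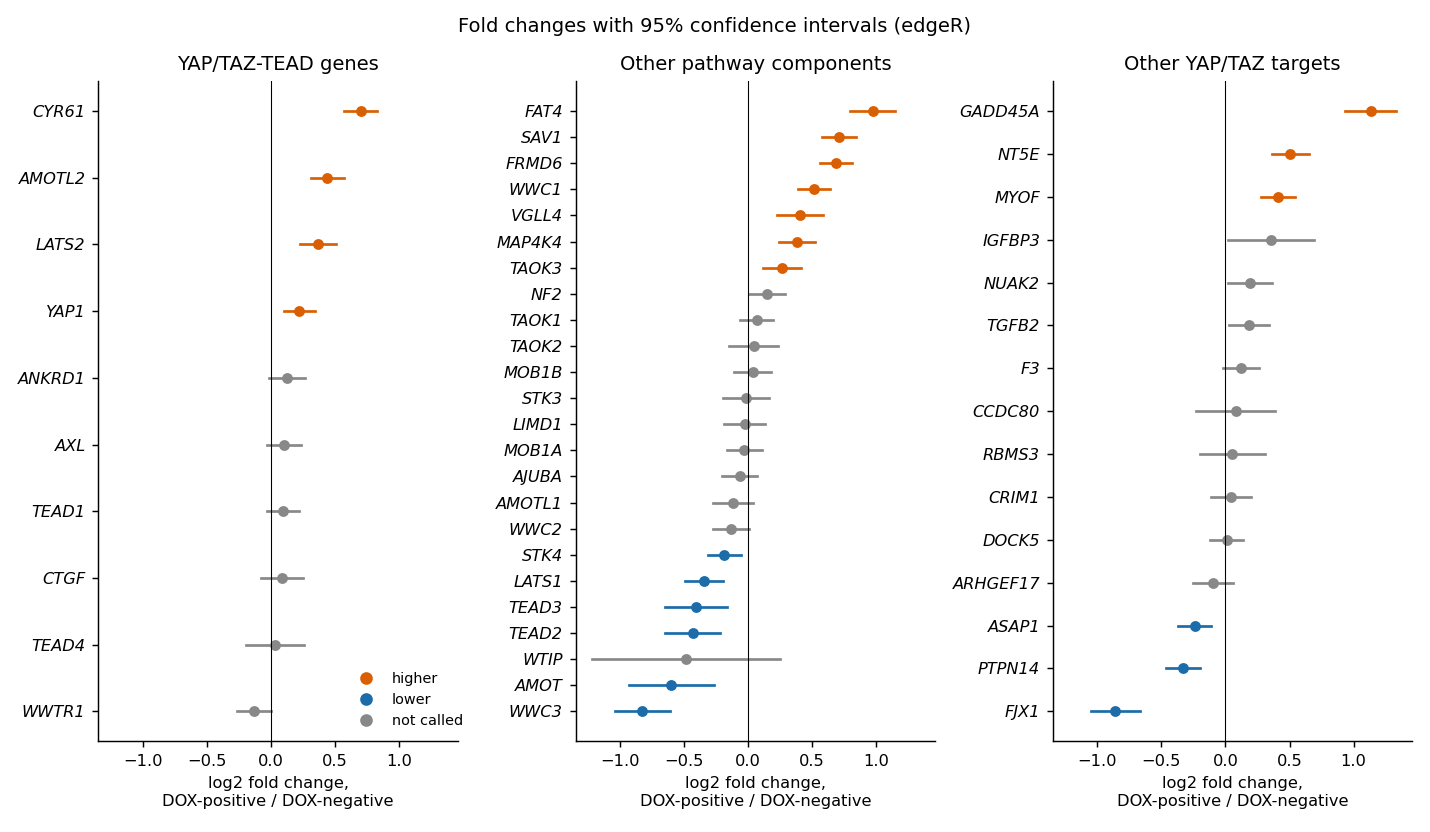
Log2 fold changes on counts (points) with 95% confidence intervals from edgeR, DOX-positive against DOX-negative, for the 10 YAP/TAZ-TEAD genes, 24 tested other pathway components (21 upstream of YAP and TAZ, with TEAD2, TEAD3 and VGLL4) and 15 tested other targets. Orange and blue mark genes called higher and lower, and in each of the other lists genes called in both directions appear; on log2(TPM + 1) of the deposited values the signs of 7 of the 10 genes (YAP1, TEAD1, TEAD4, CTGF, ANKRD1, AXL and LATS2), 6 of the 24 and 8 of the 15 turned, among them 4 called genes, YAP1, LATS2, TAOK3 and MAP4K4.

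Levels were compared between genes per transcript length, on TPM rescaled so that the 5 noncoding RNAs named by their share above no longer count. CYR61 was the highest of the 10 in all 6 libraries, at 501 ± 19.6 rescaled TPM without and 801 ± 27.8 with DOX, above 98.7% of the genes tested. WWTR1 (328 ± 16.0 and 295 ± 5.64), AXL (320 ± 24.8 and 337 ± 16.3) and ANKRD1 (272 ± 21.3 and 293 ± 23.4 rescaled TPM) took the ranks below it. AXL was above ANKRD1 in all 6 libraries. WWTR1 was above AXL in some libraries and below it in others, and was below ANKRD1 in DOX-positive replicate 3 alone. TEAD1 came next in every library (221 ± 13.2 and 232 ± 9.56). AMOTL2 (148 ± 10.6 and 198 ± 5.44) and YAP1 (143 ± 4.20 and 164 ± 6.61) could not be ordered in the DOX-negative libraries, and AMOTL2 was the higher in each DOX-positive library. CTGF (71.2 ± 4.04 and 74.5 ± 4.86) was above LATS2 (60.3 ± 2.44 and 76.7 ± 4.37) in each DOX-negative library but not in each DOX-positive library. TEAD4 was the lowest in all 6 libraries, at 23.5 ± 1.53 and 23.6 ± 1.75 rescaled TPM.

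**Figure D5:**
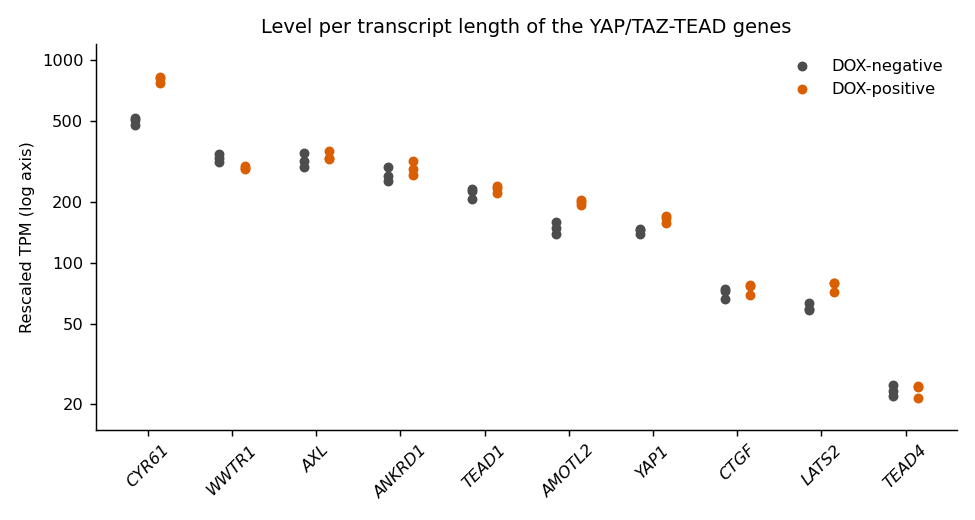
Rescaled TPM of the 10 genes in each library on a log axis, ordered by the DOX-negative mean. CYR61 lies above every other gene in both groups and TEAD4 below every other gene, and YAP1, at 138 or more in every library, lies clear above CTGF, at 77.9 or less.

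The genes whose log2 CPM followed YAP1 most closely over the 6 libraries were GADD45A, RIMS2 and BNIP2 (Pearson's r 0.998, 0.997 and 0.997), and those that followed CYR61 were ITGB4, TSPAN3 and PGRMC1 (0.998, 0.998 and 0.997). With 6 points in 2 groups, these r mostly restate the difference between the groups and the shared libraries, and they are given as a description.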

How the data were processed

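Libraries were stranded mRNA libraries (TruSeq Stranded mRNA) from triplicate cultures, and samples were grouped by the DOX state in their titles. The authors deposited whole-number read counts for 28008 genes and TPM for 25546 genes. The submitters' processing notes name STAR, DESeq2 and GRCh38/hg38. The counting step, its strand setting and the annotation are not given in the sources used here. The table columns spell the resistant line differently from the titles, but each matched 1 sample by DOX state and number.

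Counts were tested in R 4.3.3 with edgeR 4.0.16 (filterByExpr with a minimum count of 10, TMM factors of 0.986 to 1.03, glmQLFit and glmQLFTest, two-sided, group as the only term), with Benjamini-Hochberg adjustment over all 14292 genes and a threshold of 0.05. The SE was the absolute log2 fold change over the square root of F. The fits were tested on simulated data. Differences between libraries of a group exceeded sampling noise (chi-square per degree of freedom 3.76 to 20.2), and each library was 1 replicate. No molecular identifiers are stated, and the floor of 3 counts therefore reflects counting error alone. Ratios and shares of TPM were compared with exact permutation tests.

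Alternatives were RLE factors, total counts, DESeq2 1.42.0, a replicate block, genes with at least 10 counts in all libraries, no filter, limma 3.58.1 on log2(TPM + 1), log2(TPM + 0.1) and rescaled TPM, a fold threshold, and each library left out. Fold changes on log2(TPM + pseudocount) understate changes of low genes. Promoter windows and positions come from RefSeq GRCh38.p14 and exon overlaps from GENCODE 29. Members and lists were chosen with earlier results of these data known. Named genes were every YAP/TAZ-TEAD gene, MUC1, each gene of the other lists with an adjusted p under 0.05 or fewer than 3 counts in every library, LATS1, TEAD2 and TEAD3, and the 3 genes most correlated with YAP1 and with CYR61. AMOTL1, DCHS1 and the markers VIM and COL1A1 were named after their values were seen. The other targets NUAK2, TGFB2, F3, IGFBP3, CCDC80 and RBMS3 were named only for the hexamer search. Further marker genes are not reported here.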

Additional observations from a re-analysis of the deposited data

How the results depend on the processing

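MUC1 and the calls of CYR61, AMOTL2, LATS2 and YAP1 kept their direction and their side of the threshold under every alternative run on counts and on rescaled TPM, apart from the added fold threshold, which MUC1 alone of the 5 met. With limma on log2(TPM + 1) and log2(TPM + 0.1), and on counts when a log2 change of 1 or more in size was also required, the genes past the threshold numbered 443, 408 and 368 in place of 3816, the YAP/TAZ-TEAD genes 0, 0 and 0 in place of 4, the 28 other pathway components (TEAD2, TEAD3 and the VGLL genes included) 1, 1 and 0 in place of 13, and the other targets 1, 1 and 1 in place of 6. The median log2 fold change of all genes was -0.32 and -0.39 on the deposited TPM and -0.025 on rescaled TPM, which gave 3097 calls. On the 2 TPM scales in that order, signs turned for YAP1 (-0.17 and -0.17), TEAD1 (-0.30 and -0.30), TEAD4 (-0.33 and -0.36), CTGF (-0.29 and -0.30), ANKRD1 (-0.26 and -0.26), AXL (-0.29 and -0.29), LATS2 (-0.025 and -0.024), TAOK3 (-0.12 and -0.13) and MAP4K4 (-0.014 and -0.012). TAOK3 was not called on rescaled TPM (adjusted p = 0.0528). TEAD4 turned to -0.0017 with total counts and ranged from -0.0065 to 0.099 with a library left out. Leaving out each library gave 2784 to 3645 genes called. Same-numbered libraries did not deviate together (r of -0.019, -0.095 and -0.027). A fit with a replicate block called 3158 genes, 3136 of them shared, and changed 1 named call, STK4 (adjusted p = 0.0865), which was also lost with no filter (0.0541). Depth limits what can be said of VGLL1, VGLL2, VGLL3, DCHS1 and FOXF2. The exact permutation tests of ratios could not go below p = 0.1.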
